A study of Mus musculus with 18 samples.

Results

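Treg cells that carried only Foxp3 with the substitution I363V or R397W were compared with conventional CD4 T cells (Tconv) across all measured genes. The comparison used 8 of the 18 Affymetrix mouse arrays of the series, chosen by their titles: 3 arrays of I363V Treg cells, 3 of R397W Treg cells and 2 of Tconv cells. All mice were of strain B6;129 and untreated, and the cells were isolated fresh from spleen and lymph nodes. Their ages are not given in the sources used here.

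The I363V and the R397W Treg cells were the CD4+ cells positive for hCD2 and negative for GFP of heterozygous mice, in which the mutant Foxp3 allele carries an hCD2 reporter and the other allele is wild type and carries GFP. Mutant cells therefore developed in animals that also held wild-type Treg cells. Tconv cells were CD4+ and negative for both reporters, and came from mice in which both Foxp3 alleles were wild type (one tagged with hCD2, the other with GFP), not from the mutant animals. The same wild-type mice gave WT hCD2 Treg cells (2 arrays, numbered 3 and 4), which carry the reporter of the mutant cells and served as their wild-type counterpart. Wild-type GFP Treg cells of mice with another substitution, A384T (3 arrays), were used to define a Treg programme on separate arrays. The labels do not say that the arrays of a group are separate animals, so the p-values cover the scatter between arrays, which may be technical.

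Foxp3 is the X-linked forkhead transcription factor that defines Treg cells, and in heterozygous females X inactivation leaves each cell with one of its alleles. Foxp3 holds some genes up (Il2ra, Ctla4) and others down (Il2, Pde3b), while part of the Treg programme is laid down in the thymus together with demethylation of selected loci and does not need Foxp3 protein to begin. A further part belongs to effector Treg cells, which acquire homing receptors and suppressor molecules after activation.

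Values are log2 signals on which the authors centred each probe set, so that the Tconv arrays average 0 and the absolute level is lost. A log2 value below is that of one array relative to the Tconv mean, and a log2 difference is one between groups, with its SE from limma. A gene was called at a limma adjusted p under 0.05 over all 18193 genes. Array medians lay between -0.0359 and 0.0376. Tconv array 1 and WT hCD2 array 3 deviated from their group means together (correlation 0.72 across genes), so WT hCD2 against Tconv rests on arrays that are not independent. The 6 mutant arrays had no such tie of more than 0.34 in size to a Tconv array. RNA was measured in bulk, and fewer cells of a type and less RNA per cell cannot be told apart.

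Foxp3, Ikzf4 and Ctla4 mark Treg cells. Foxp3 had log2 values of 6.95, 7.11 and 6.51 in I363V cells and 6.38, 6.55 and 7.0 in R397W cells, against 7.33 and 7.06 in WT hCD2 cells and -0.07 and 0.07 in Tconv cells. Every mutant array lay far above both Tconv arrays and near the wild-type Treg arrays, one I363V array between them. The log2 difference from Tconv was 6.75 ± 0.17, a 108-fold rise (limma adjusted p = 1.26e-11), and that from WT hCD2 was -0.45 ± 0.17 and was not called (adjusted p = 0.336). High Foxp3 RNA follows from the sort, since the mutant cells were gated on a reporter of the Foxp3 allele and Tconv cells on its absence, so it does not test the identity of the cells. R397W cells did not differ detectably from I363V cells in it (-0.21 ± 0.17, limma adjusted p = 0.787). Ikzf4, which encodes the Ikaros family factor Eos, had log2 values of 2.87, 2.61 and 3.20 in I363V cells and 3.04, 3.14 and 2.79 in R397W cells, against 3.27 and 3.42 in WT hCD2 cells and -0.29 and 0.29 in Tconv cells. Ctla4, the inhibitory receptor that binds CD80 and CD86, stood at 3.47, 4.35 and 3.92 in I363V cells and at 3.67, 2.97 and 3.56 in R397W cells, against 4.18 and 4.04 in WT hCD2 cells and 0.19 and -0.19 in Tconv cells. Both were clear of the Tconv arrays on each mutant array, by 2.94 ± 0.16 for Ikzf4 and 3.65 ± 0.22 for Ctla4 (limma adjusted p = 4.72e-08 and 1.07e-07). The other Ikzf4 probe sets differed from Tconv by 2.78 and 0.07. None of 10 measured markers of T cell identity such as Cd3e and Cd4 was called against Tconv by limma, with 3 higher at an unadjusted p under 0.05.

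Across all genes, limma called 514 different between the mutants and Tconv (2.83%), of which 282 were higher (1.55%) and 232 lower (1.28%). I363V cells alone had 270 higher (1.48%) and 186 lower (1.02%), and R397W cells alone had 192 higher (1.06%) and 176 lower (0.967%). WT hCD2 cells, set against the same Tconv arrays, had 742 genes called (4.08%), 491 higher (2.7%) and 251 lower (1.38%). The counts depend on the Tconv arrays: without Tconv 1 or Tconv 2 limma called 167 or 134 genes higher and 199 or 92 lower. All 6 mutant arrays lay above both Tconv arrays for 4.77% of genes and below both for 5.78%, called or not. With a log2 difference of 1 or more asked for as well, 158 rose (0.868%) and 107 fell (0.588%).

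The largest rises were in genes that are also high in wild-type Treg cells. Il2ra, which encodes the high-affinity subunit CD25 of the IL-2 receptor, had log2 values of 4.96, 4.80 and 4.32 in I363V cells and 4.31, 4.30 and 4.61 in R397W cells, against 5.55 and 5.20 in WT hCD2 cells and -0.17 and 0.17 in Tconv cells. It was thus 23.4-fold above Tconv (4.55 ± 0.16, limma adjusted p = 5.49e-10), yet every mutant array lay below both WT hCD2 arrays, by 0.82 ± 0.16 on average (adjusted p = 0.0151). The call against WT hCD2 was lost without either WT hCD2 array. Ikzf2, which encodes the factor Helios, had log2 values of 3.73, 3.67 and 4.24 in I363V cells and 3.98, 3.71 and 3.62 in R397W cells, against 4.83 and 4.76 in WT hCD2 cells and 0.02 and -0.02 in Tconv cells. It too was raised over Tconv (14.2-fold, 3.83 ± 0.14) and fell short of WT hCD2 on each mutant array (log2 difference -0.97 ± 0.14, limma adjusted p = 0.00223).

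Several other large rises reached the wild-type range. Dusp4, a phosphatase of MAP kinases, had log2 values of 4.10, 5.01 and 4.26 in I363V cells and 4.24, 3.27 and 4.04 in R397W cells, against 4.73 and 4.51 in WT hCD2 cells and 0.20 and -0.20 in Tconv cells. Gsta4, a glutathione transferase, lay within 3.40 and 3.90 on the 6 mutant arrays, against 3.80 and 3.88 in WT hCD2 cells and -0.07 and 0.07 in Tconv cells. For both, mutant and WT hCD2 arrays overlapped and all stood far above Tconv. The same held for Rgs1, a regulator of G protein signalling (log2 difference from Tconv 3.78 ± 0.22), for the interferon-inducible GTPase Gbp2b (4.38 ± 0.34) and for Arhgap20 (3.51 ± 0.21). Socs2, an inhibitor of cytokine signalling, rose by 3.91 ± 0.17 with all mutant arrays under both WT hCD2 arrays, a difference that was not called (-0.66 ± 0.17, limma adjusted p = 0.0733). The other Socs2 probe sets differed from Tconv by 0.02 to 3.52. Desmoplakin (Dsp) rose by 3.42 ± 0.29, to above the WT hCD2 arrays. The zinc finger factor Plagl1 rose by 3.05 ± 0.36, but every mutant array lay below both WT hCD2 arrays (4.70 and 4.80). That difference was called (-1.69 ± 0.36, limma adjusted p = 0.0226), and the call was lost without either WT hCD2 array. 1 of 3 Dsp probe sets (-0.03) and 2 of 3 Plagl1 probe sets (0.14 and 0.15) showed no such rise over Tconv. Each of the 12 largest rises was called again with any one array left out and under every other setting that was tried.

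**Figure D1:**
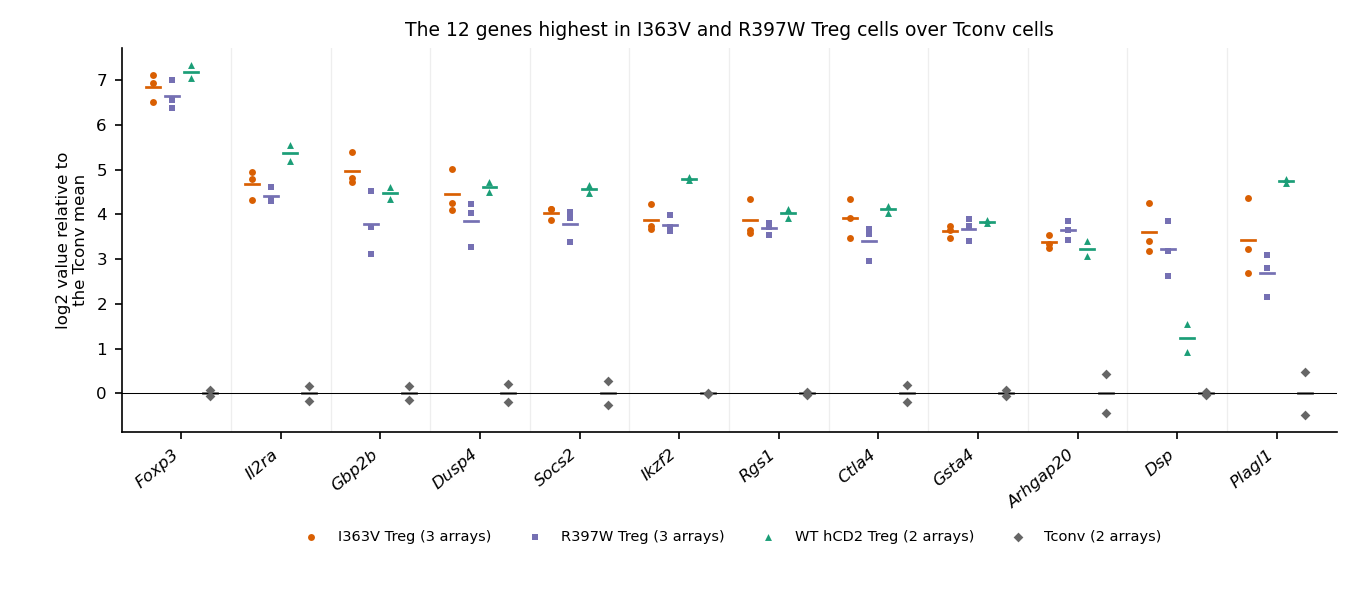
Log2 value of each array relative to the Tconv mean (vertical axis) for the 12 genes with the largest rises in I363V and R397W Treg cells over Tconv cells. Symbols are arrays (3 I363V, 3 R397W, 2 WT hCD2, 2 Tconv) and short bars are group means. Foxp3 stands between 6.38 and 7.11 on the mutant arrays, and Dsp is the gene whose WT hCD2 arrays (1.55 and 0.92) lie under all mutant arrays.

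Most of the largest falls also reached or approached the level of wild-type Treg cells. The mutant means of Ccl5, Tent5a and Il7r lay 2.22, 1.29 and 0.61 below WT hCD2 on the log2 scale. Those of Klrc1, Dntt, Prf1 and Elovl7 were below it by less (0.10 to 0.22). Klrd1, which encodes the killer cell lectin receptor CD94, had log2 values of -4.84, -4.52 and -4.67 in I363V cells and -3.98, -4.06 and -4.81 in R397W cells, against -4.69 and -4.81 in WT hCD2 cells and -0.30 and 0.30 in Tconv cells. App, the amyloid precursor protein, lay between -4.44 and -2.97 on the 6 mutant arrays, against -3.89 and -4.61 in WT hCD2 cells, with Tconv arrays at 0.00. Both fell to the wild-type Treg range, by 4.48 ± 0.29 for Klrd1 and 3.95 ± 0.29 for App (limma adjusted p = 2.54e-07 and 1.04e-06). Of the 4 App probe sets, 2 showed no fall (0.01 and -0.06) and another one of 1.34.

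A second group of genes fell by less than in wild-type cells. Atp8b4, a phospholipid-transporting ATPase, had log2 values of -3.40, -3.78 and -3.63 in I363V cells and -3.25, -2.48 and -3.32 in R397W cells, against -4.71 and -4.58 in WT hCD2 cells and -0.16 and 0.16 in Tconv cells. The mutant arrays did not overlap with either, and the gene was 1.33 ± 0.19 above WT hCD2 on the log2 scale (limma adjusted p = 0.00125). The cytoskeletal adaptor Pdlim4 (-3.26 ± 0.24 against Tconv, 1.09 ± 0.24 against WT hCD2) and the heparan sulfate sulfotransferase Hs3st3b1 (-2.69 ± 0.20 and 0.88 ± 0.20) behaved alike. Their calls against WT hCD2 (limma adjusted p = 0.0323 and 0.0358) were lost in several fits with one array left out. The other Hs3st3b1 probe sets showed no such fall against Tconv (-0.26, 0.11 and -0.22), and the other Atp8b4 probe set was only -0.39 from it.

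The pore-forming protein perforin (Prf1) fell by 2.18 ± 0.24, the lectin receptor Klrc1 by 2.48 ± 0.40, and Il7r, the receptor chain for the survival cytokine IL-7, by 2.06 ± 0.28 (limma adjusted p = 6.8e-05, 0.00202 and 0.000553). A second probe set of Prf1 (-0.10) and of Klrc1 (0.06) showed no fall. The Tconv arrays of Klrc1 stood apart (-1.25 and 1.25), its log2 difference was -3.72 without Tconv 1 and -1.23 without Tconv 2, and the call was lost with only the groups compared and with the replicate number as a block. Il7r was lower on all 6 mutant arrays (-2.35 to -1.72) than on the WT hCD2 arrays (-1.48 and -1.41), although that difference was not called (-0.61 ± 0.28, limma adjusted p = 0.48). The other Il7r probe set was -1.35 from Tconv and 0.01 from WT hCD2. Dntt, the terminal transferase that adds bases at antigen receptor joints, fell by 2.04 ± 0.11 and the fatty acid elongase Elovl7 by 2.05 ± 0.22. Tent5a, a non-canonical poly(A) polymerase, fell by 2.33 ± 0.37, and its call was lost without Tconv 2. WT hCD2 cells were -1.04 from Tconv in Tent5a, and the mutants -1.29 ± 0.37 from WT hCD2, neither of which was called (limma adjusted p = 0.354 and 0.114). The chemokine Ccl5 fell by 2.35 ± 0.33 and is described with the genes below both references.

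**Figure D2:**
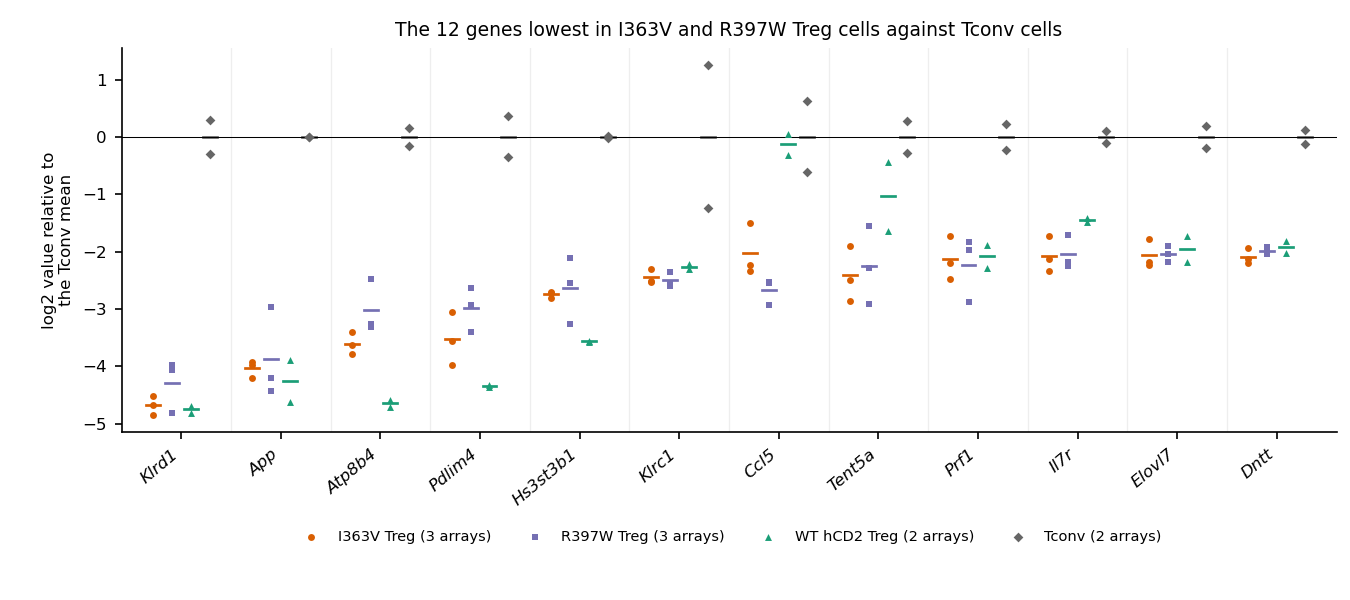
Log2 value of each array relative to the Tconv mean (vertical axis) for the 12 genes with the largest falls in I363V and R397W Treg cells against Tconv cells, with the symbols of the plot of the largest rises. Mutant arrays of Klrd1, App, Prf1 and Dntt share the range of WT hCD2. Those of Atp8b4, Pdlim4 and Hs3st3b1 lie above it, those of Ccl5 and Il7r below it, and those of Klrc1 narrowly below it.

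To place these genes in the Treg programme, programme genes were taken from arrays that hold neither mutant nor WT hCD2 cells: 552 genes called at least 1 log2 unit higher, and 157 at least 1 lower, in wild-type GFP Treg cells of A384T mice than in Tconv cells (941 genes were called higher there at any size, 5.17%, and 7.57% in either direction). Their values against Tconv share the Tconv arrays with that choice and are given as a description only. The median log2 value of the 552 higher genes was 0.84, 0.82 and 0.62 for I363V cells and 0.70, 0.36 and 0.60 for R397W cells, against 1.35 and 1.24 for WT hCD2 cells. All mutant arrays were thus between Tconv and wild-type Treg cells. For the 157 lower genes the medians were -1.10, -0.99 and -1.07 in I363V cells and -0.99, -0.85 and -1.15 in R397W cells, against -1.37 and -1.35 in WT hCD2 cells, which is nearer to the wild-type Treg arrays than for the higher genes.

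The test against WT hCD2 does not subtract Tconv values, and called 347 genes in all (1.91%). Of the 552 higher programme genes, limma called 168 lower in the mutants than in WT hCD2 cells (30.4%, against 1.44% of all genes), 3 higher (0.467% of all genes) and 381 not different, and their median log2 difference was -0.62 (-0.02 over all genes). I363V cells alone had 89 of them lower (16.1%, against 0.682%) and R397W cells 184 (33.3%, against 1.55%; 2.26% of all genes in either direction). Of the 157 lower programme genes, 29 were called higher in the mutants (18.5%, against 0.467%) and 0 lower (3 at an unadjusted p under 0.05), with a median of 0.40. No programme gene was called by limma between the mutants. At an unadjusted p under 0.05, R397W cells had 5 higher and 82 lower among the 552 and 20 higher and 2 lower among the 157. Among all 18193 genes these counts were 775 and 775. R397W cells lay below I363V cells for 80.8% of the 552 and 30.6% of the 157, against 51.3% of all genes. The count of 168 was 88 without WT hCD2 array 3 and 55 without array 4.

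**Figure D3:**
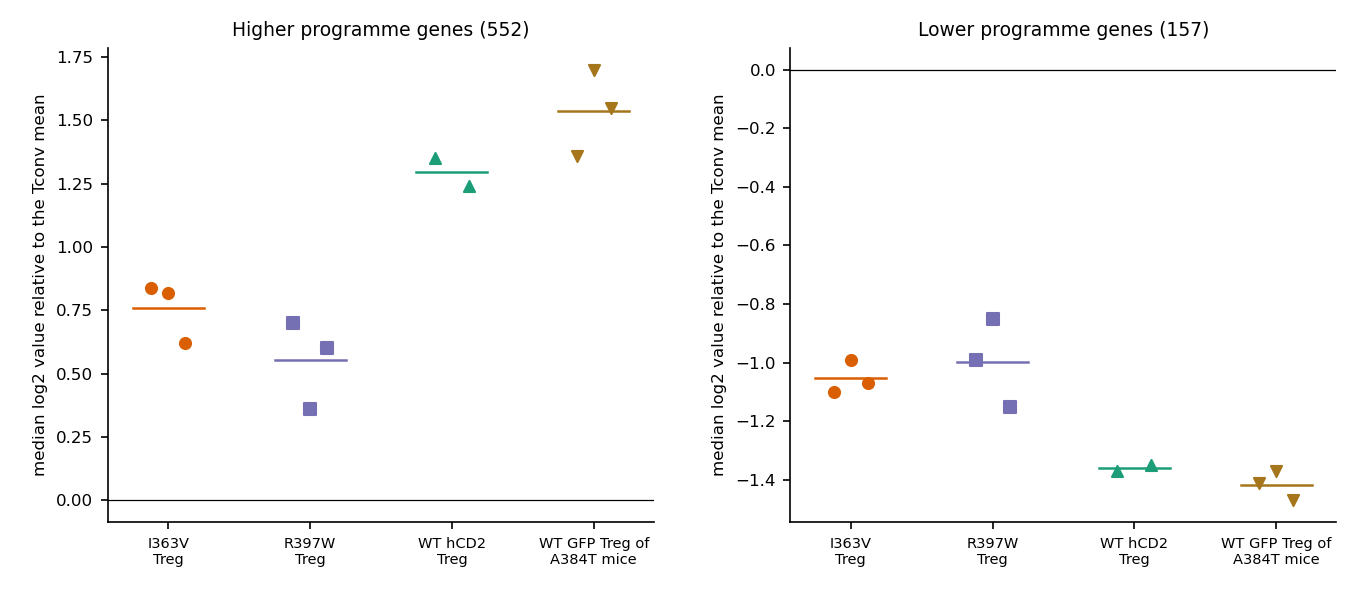
Median log2 value relative to the Tconv mean (vertical axis) over the 552 higher and the 157 lower programme genes, 1 point per array, with bars at the mean of a group. The wild-type GFP Treg cells of A384T mice at the right chose the genes, and the I363V and R397W arrays lie nearer to 0 than the WT hCD2 arrays in both panels.

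Among the 100 largest higher programme genes 53 were called below WT hCD2, against 1.44% of all genes. The losses were led by genes that were no higher in the mutants than in Tconv. Klrg1, a lectin receptor of activated Treg cells, had log2 values of -0.50, 0.12 and -0.22 in I363V cells and -0.76, -0.70 and -0.23 in R397W cells, against 3.50 and 4.92 in WT hCD2 cells and -0.13 and 0.13 in Tconv cells. Fgl2, a secreted immunosuppressive protein of the fibrinogen family, stood at -0.54, -0.52 and -0.95 in I363V cells and at -0.80, -1.25 and -1.19 in R397W cells, against 2.02 and 3.25 in WT hCD2 cells and -0.87 and 0.87 in Tconv cells. Neither gene passed the test against Tconv (limma adjusted p = 0.806 and 0.456), and mutant arrays overlapped with Tconv arrays or lay under them. Whether these values are background cannot be told from centred data. Tktl1, a transketolase-like enzyme (log2 difference from WT hCD2 -2.98 ± 0.34), and Ttc39c (-2.42 ± 0.28) showed the same pattern, with log2 differences from Tconv of -0.55 ± 0.34 and -0.45 ± 0.28 that were not called.

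Other lost genes kept a part of their level. Gpr15, a homing receptor for the large intestine, had log2 values of 1.18, 1.03 and 0.50 in I363V cells and 0.36, 0.30 and 0.45 in R397W cells, against 3.30 and 3.69 in WT hCD2 cells and 0.05 and -0.05 in Tconv cells. Penk, the enkephalin precursor, lay between 0.34 and 1.40 on the mutant arrays against 3.70 and 3.16 on the WT hCD2 arrays, and Ebi3, a subunit of IL-35, between 0.46 and 1.2 against 3.07 and 3.52. All mutant arrays of these 3 genes stood above both Tconv arrays, but their log2 differences from Tconv (0.64 ± 0.32, 0.79 ± 0.27 and 0.86 ± 0.26) were not called. Itgae, the alpha E integrin that binds E-cadherin on epithelia, was partly kept in a called way. Its log2 values were 2.41, 2.53 and 2.19 in I363V cells and 1.66, 1.44 and 1.92 in R397W cells, against 4.47 and 4.85 in WT hCD2 cells and -0.07 and 0.07 in Tconv cells. It was 2.03 ± 0.20 above Tconv (limma adjusted p = 2.8e-05) and 2.63 ± 0.20 below WT hCD2 on the log2 scale (adjusted p = 1.66e-05). R397W arrays of Itgae were all below the I363V arrays, a difference that was not called (-0.70 ± 0.20, limma adjusted p = 0.27).

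The higher programme genes nearest to WT hCD2 were Itih5, Gbp2b, Wls, Gsta4, Ntn4, Dusp1, Rgs1 and Arhgap20, with log2 differences of -0.24 to 0.28 from WT hCD2 for the mean of both mutants. For some of them the mutant group means lay on opposite sides of WT hCD2. Dusp1, a phosphatase of MAP kinases, was 1.16 above WT hCD2 in I363V cells and -0.70 from it in R397W cells. In R397W cells Dusp1 was not called against Tconv (limma adjusted p = 0.458), and its call for both mutants was lost without Tconv 2. Gbp2b was 0.50 above WT hCD2 in I363V cells and -0.69 from it in R397W cells. For Dusp1 and Gbp2b neither mutant was called against WT hCD2 (limma adjusted p = 0.51 to 0.804). Their differences between the mutants were not called either (limma adjusted p = 0.179 and 0.259). Wls, which escorts Wnt proteins to the surface, had log2 values of 3.05, 3.21 and 2.56 in I363V cells and 1.79, 3.31 and 1.21 in R397W cells, against 2.35 and 2.49 in WT hCD2 cells and 0.20 and -0.20 in Tconv cells. Its arrays scatter widely within R397W, and its call against Tconv (2.52 ± 0.47, limma adjusted p = 0.00633) was lost without Tconv 2. Ntn4, a netrin, was not called against Tconv (2.58 ± 0.85, limma adjusted p = 0.171). These genes were picked for a small difference, which does not show equality.

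Lower programme genes with the largest return towards Tconv included signalling and surface proteins. Lypd6b, a Ly6 family protein, had log2 values of -1.74, -1.39 and -1.71 in I363V cells and -1.0, -1.48 and -1.31 in R397W cells, against -3.68 and -4.19 in WT hCD2 cells and 0.23 and -0.23 in Tconv cells. Pde3b, the phosphodiesterase that breaks down cyclic AMP, stood at -1.69, -1.02 and -1.45 in I363V cells and at -1.23, -0.61 and -1.78 in R397W cells, against -3.76 and -2.98 in WT hCD2 cells and -0.02 and 0.02 in Tconv cells. Both lay between the Tconv and the WT hCD2 arrays without overlap, 2.49 ± 0.21 above WT hCD2 for Lypd6b and 2.08 ± 0.25 for Pde3b (limma adjusted p = 3.25e-05 and 0.000436). Their falls against Tconv were called too (-1.44 ± 0.21 and -1.30 ± 0.25), that of Pde3b not without Tconv 1 or Tconv 2.

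Ggt5, a gamma-glutamyl transferase, had log2 values of -0.65, -0.74 and -0.52 in I363V cells and -0.13, -0.60 and 0.34 in R397W cells, against -2.59 and -2.48 in WT hCD2 cells and 0.08 and -0.08 in Tconv cells. 1 R397W array thus lay above Tconv, and the difference from Tconv was not called (-0.39 ± 0.19, limma adjusted p = 0.454). Of the other Ggt5 probe sets, 1 was -1.33 from Tconv and 1 only 0.16 above WT hCD2. The neuropeptide receptor Vipr1 (1.89 ± 0.13 above WT hCD2), Tdrp (1.85 ± 0.12), the ion channel subunit Cnga1 (1.64 ± 0.27), the monocarboxylate carrier family member Slc16a5 (1.63 ± 0.23) and the IL-36 receptor Il1rl2 (1.59 ± 0.20) completed the 8 largest. The other Vipr1 probe set showed no rise over WT hCD2 (-0.19). The lower programme genes chosen for the smallest difference from WT hCD2 (within 0.10) were Cap2, Epas1, Lyst, Rgmb, Amz1, Sulf2, Nacc2 and Lair1. The fall of Cap2 against Tconv was called in 2 of 8 fits with one array left out (-1.89 to -0.51), and that of Sulf2 (-1.72 to -0.61) was lost without Tconv 2. Lair1, an inhibitory collagen receptor, lay between -1.98 and -1.27 on the mutant arrays against -1.67 and -1.94 in WT hCD2 cells and was 1.71 ± 0.15 below Tconv (limma adjusted p = 7.47e-06).

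**Figure D4:**
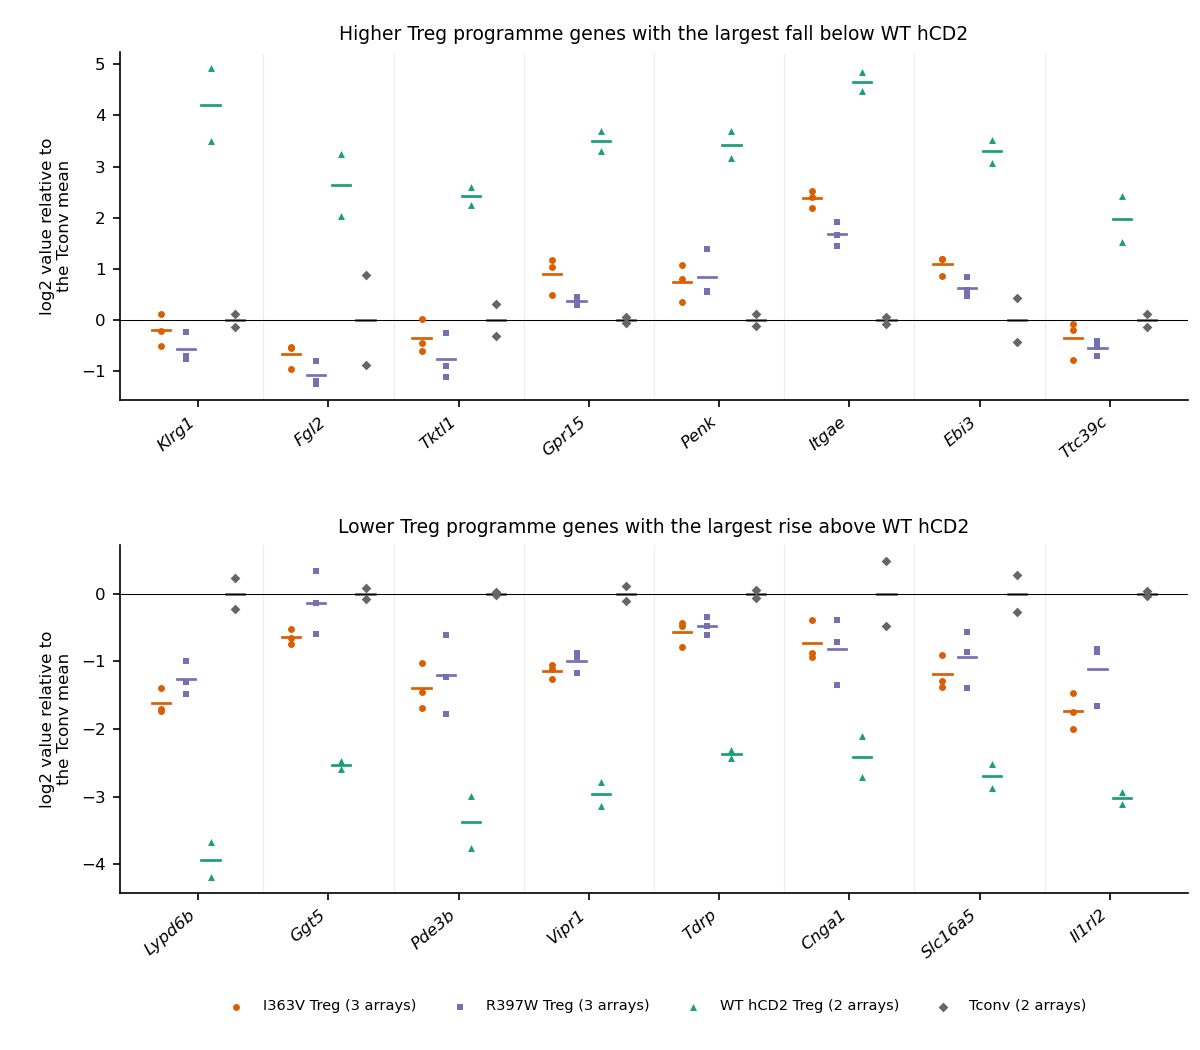
Log2 value of each array relative to the Tconv mean (vertical axes) for the 8 higher programme genes with the largest fall below WT hCD2 (top) and the 8 lower programme genes with the largest rise above it (bottom). Mutant arrays of Klrg1, Fgl2, Tktl1 and Ttc39c lie at or under the Tconv level, those of Itgae in between, and those of the 8 lower genes above the WT hCD2 arrays.

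Foxp3 binds DNA through its forkhead domain, which recognises TGTTT and its reverse complement AAACA. The promoters of a gene called above Tconv and not called against WT hCD2 (Ctla4) and of a gene called below WT hCD2 and not against Tconv (Fgl2) are shown as the 250 bases before the RefSeq start on GRCm38.p6, Ctla4 at chr1:60908775-60909024 and Fgl2 at chr5:21372423-21372672, both on the plus strand, with these letters in capitals.
Ctla4: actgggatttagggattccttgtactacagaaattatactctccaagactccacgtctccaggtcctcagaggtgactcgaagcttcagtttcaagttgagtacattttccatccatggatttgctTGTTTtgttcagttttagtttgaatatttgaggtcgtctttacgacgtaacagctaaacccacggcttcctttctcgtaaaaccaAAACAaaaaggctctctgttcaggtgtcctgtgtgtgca
Fgl2: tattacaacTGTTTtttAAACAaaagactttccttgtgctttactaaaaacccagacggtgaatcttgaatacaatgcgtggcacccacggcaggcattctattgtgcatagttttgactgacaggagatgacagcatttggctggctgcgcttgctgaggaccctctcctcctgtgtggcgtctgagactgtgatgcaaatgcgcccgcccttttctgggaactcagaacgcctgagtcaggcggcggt
Each holds 1 TGTTT and 1 AAACA. Searched on both strands, TGTTT occurred in 46.4% of 32851 mouse promoters of this length, in 4 of the 7 matched promoters among the 12 largest rises and in 4 of the 4 matched among the 8 most lost programme genes. The longer motif TGTTTAC, which contains TGTTT, occurred in 3.17% of promoters and in none of those of either set, which are too few to show a share that low. For TGTTT, the other named sets ranged from 1 of 6 matched promoters (genes above both references) to 5 of 6 (genes higher in R397W than in I363V cells). The 12 largest falls had 3 of 10. Differences between these shares were not tested. A match describes letters in this window only.

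Of 6 genes with a Treg-specific demethylated region (Foxp3, Ikzf2, Ikzf4, Ctla4, Il2ra and Tnfrsf18), 6 rose in the mutants over Tconv (1.55% of all genes), with a median log2 difference of 3.74. The rise of Foxp3 follows from the sort, and the list was chosen with earlier results of these data known. The count is therefore a description only. The WT hCD2 median was 4.45, also with 6 higher (2.7% of all genes). In the mutants 2 of the 6 (Ikzf2 and Il2ra) were called below WT hCD2 (1.44% of all genes). Tnfrsf18, the TNF receptor GITR, rose least (1.44 ± 0.24, limma adjusted p = 0.00306), with log2 values of 1.38, 0.81 and 1.66 in I363V cells and 1.85, 0.99 and 1.96 in R397W cells, against 2.28 and 2.23 in WT hCD2 cells and -0.03 and 0.03 in Tconv cells. Its call against Tconv was lost without Tconv 2.

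Of 24 transcription factors and partners of Foxp3, 4 rose (Foxp3, Ikzf2, Ikzf4 and Irf4; 1.55% of all genes), 1 fell (Runx3; 1.28% of all genes) and 19 were not called against Tconv. Foxp3 is among the 4 by the sort. WT hCD2 cells had 7 higher (2.7% of all genes) and 1 lower (1.38% of all genes). Irf4, a factor of effector Treg differentiation, rose by 1.48 ± 0.28 (limma adjusted p = 0.00672; lost without Tconv 2). Prdm1, which encodes the effector factor Blimp-1, had log2 values of -0.33, 0.07 and -0.86 in I363V cells and -0.25, -0.48 and -0.79 in R397W cells, against 0.91 and 0.99 in WT hCD2 cells and -0.09 and 0.09 in Tconv cells. Its mutant arrays thus lay at or below Tconv and below WT hCD2 (log2 difference from WT hCD2 -1.39 ± 0.20, limma adjusted p = 0.00132). Runx3, a Runt factor of cytotoxic lineages, fell by 1.66 ± 0.22 against Tconv (limma adjusted p = 0.000412). The other Runx3 probe set showed no fall (0.03).

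In IL-2 receptor and STAT5 signalling 5 of 12 genes rose (1.55% of all genes; list median 0.67) and 0 fell (1.28% of all genes), with none lower at an unadjusted p under 0.05. Besides Il2ra and Socs2 these were Cish, an inhibitor induced by STAT5 (2.22 ± 0.18, limma adjusted p = 3.11e-06), the shared receptor chain Il2rb (1.93 ± 0.42) and the survival factor Bcl2 (1.41 ± 0.31). Cish had log2 values of 2.46, 2.48 and 2.15 in I363V cells and 2.25, 1.60 and 2.40 in R397W cells, against 2.80 and 2.44 in WT hCD2 cells and 0.01 and -0.01 in Tconv cells, so mutant and wild-type Treg arrays overlapped. The calls of Il2rb and Bcl2 (limma adjusted p = 0.0217 and 0.021) were lost without Tconv 2, and that of Il2rb also without Tconv 1.

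Of 15 costimulatory, coinhibitory and TNF receptors 7 rose over Tconv (1.55% of all genes) and 6 were called below WT hCD2 (1.44%). Of the 6, Tnfrsf9 kept that call in 1 of 8 fits with one array left out, Tnfrsf4 in 3, Pdcd1 in 6, Icos and Havcr2 in 7 and Cd83 in 8. Cd83, a surface molecule of activated lymphocytes, had log2 values of 2.43, 2.11 and 2.06 in I363V cells and 2.18, 1.93 and 2.01 in R397W cells, against 4.01 and 3.89 in WT hCD2 cells and -0.31 and 0.31 in Tconv cells. It was about midway, 2.12 ± 0.20 above Tconv and 1.83 ± 0.20 below WT hCD2 (limma adjusted p = 1.34e-05 and 0.000157). Tnfrsf4 (OX40) rose by 2.50 ± 0.24, Tnfrsf9 (4-1BB) by 1.77 ± 0.34, Pdcd1 (PD-1) by 1.49 ± 0.22 and Tnfrsf13b (TACI) by 1.0 ± 0.24 over Tconv. The calls of Tnfrsf9 and Tnfrsf13b were lost without Tconv 2, and that of Tnfrsf13b in 5 further fits with one array left out. Icos, a costimulatory receptor, was at the Tconv level (0.06 ± 0.28, limma adjusted p = 0.977) and 1.38 ± 0.28 below WT hCD2 (adjusted p = 0.0175; lost without WT hCD2 array 3).

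The secreted and surface suppressor molecules split. Of 14 genes 4 rose over Tconv (1.55% of all genes, median of the list 0.70) and 1 fell (Prf1, 1.28% of all genes). In WT hCD2 cells 10 rose (2.7% of all genes, median 2.59). In the mutants 8 were called lower than in WT hCD2 (1.44% of all genes). Nt5e, which encodes the ectonucleotidase CD73, was not called against WT hCD2 (-0.41 ± 0.17, limma adjusted p = 0.387). Its log2 values were 2.50, 2.51 and 2.13 in I363V cells and 2.51, 2.12 and 2.07 in R397W cells, against 2.92 and 2.52 in WT hCD2 cells and 0.04 and -0.04 in Tconv cells, so every mutant array lay below both WT hCD2 arrays and far above Tconv. The other Nt5e probe sets differed from Tconv by 0.56 and -0.03. Entpd1, which encodes CD39 and acts one step before CD73, was partly lost, with 1.73, 1.73 and 1.89 in I363V cells and 1.37, 1.22 and 1.34 in R397W cells, against 2.95 and 3.30 in WT hCD2 cells and -0.21 and 0.21 in Tconv cells. Entpd1 was above Tconv and below WT hCD2 without overlap (1.55 ± 0.14 and -1.58 ± 0.14, limma adjusted p = 1.34e-05 and 5.48e-05). Itgb8, an integrin chain that activates TGF-beta, rose by 2.92 ± 0.29 and Nrp1, the semaphorin receptor neuropilin-1, by 2.78 ± 0.24, and both stayed below WT hCD2 (-1.86 ± 0.29 and -1.43 ± 0.24), calls that were lost without WT hCD2 array 4 and, for Nrp1, also without array 3. Granzyme B (Gzmb) and the galectin Lgals1 were at the Tconv level (-0.04 ± 0.41 and -0.33 ± 0.24, limma adjusted p = 0.989 and 0.695). They were 2.58 ± 0.41 and 1.75 ± 0.24 below WT hCD2, calls that were lost without WT hCD2 array 4.

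Of 20 homing and adhesion receptors 3 rose over Tconv (Itgae, Ccr6 and Gpr83), 2 fell (Cxcr3 and Cxcr6) and 9 were called below WT hCD2, against 1.55%, 1.28% and 1.44% of all genes. The call of Cxcr6 held in 1 of 8 fits with one array left out, and that of Gpr83 was lost without Tconv 2. WT hCD2 cells had 9 of the 20 higher than Tconv (2.7% of all genes) and 0 lower (1.38% of all genes). Ccr6, the receptor of CCL20, had log2 values of 1.63, 1.49 and 1.40 in I363V cells and 1.49, 1.45 and 1.88 in R397W cells, against 2.47 and 2.72 in WT hCD2 cells and -0.36 and 0.36 in Tconv cells. The integrin chain Itgb1 (-2.26 ± 0.32), the chemokine receptors Ccr2 (-1.82 ± 0.30), Ccr8 (-1.75 ± 0.31) and Cxcr5 (-1.69 ± 0.21) and the hyaluronan receptor Cd44 (-1.09 ± 0.20) were lower than in WT hCD2 cells and not called against Tconv. Of these, Itgb1 and Cxcr5 kept their calls with any one array left out.

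Of 24 effector and tissue Treg genes 3 rose over Tconv (Irf4, Ahr and Itgae), 4 fell (S100a4, Cxcr3, Tbx21 and Myo1f) and 15 were called below WT hCD2, against 1.55%, 1.28% and 1.44% of all genes, with medians of 0.01 against Tconv and -1.64 against WT hCD2. WT hCD2 cells had 15 of the 24 higher than Tconv (2.7% of all genes) and a median of 1.77. Ahr, the aryl hydrocarbon receptor, had log2 values of 2.22, 2.70 and 1.98 in I363V cells and 2.77, 2.64 and 2.17 in R397W cells, against 2.41 and 3.04 in WT hCD2 cells and -0.55 and 0.55 in Tconv cells, so mutant and WT hCD2 arrays overlapped. The other Ahr probe set was only 0.16 above Tconv. These lists overlap, since Itgae, Cxcr3, Irf4 and others belong to more than one of them.

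**Figure D5:**
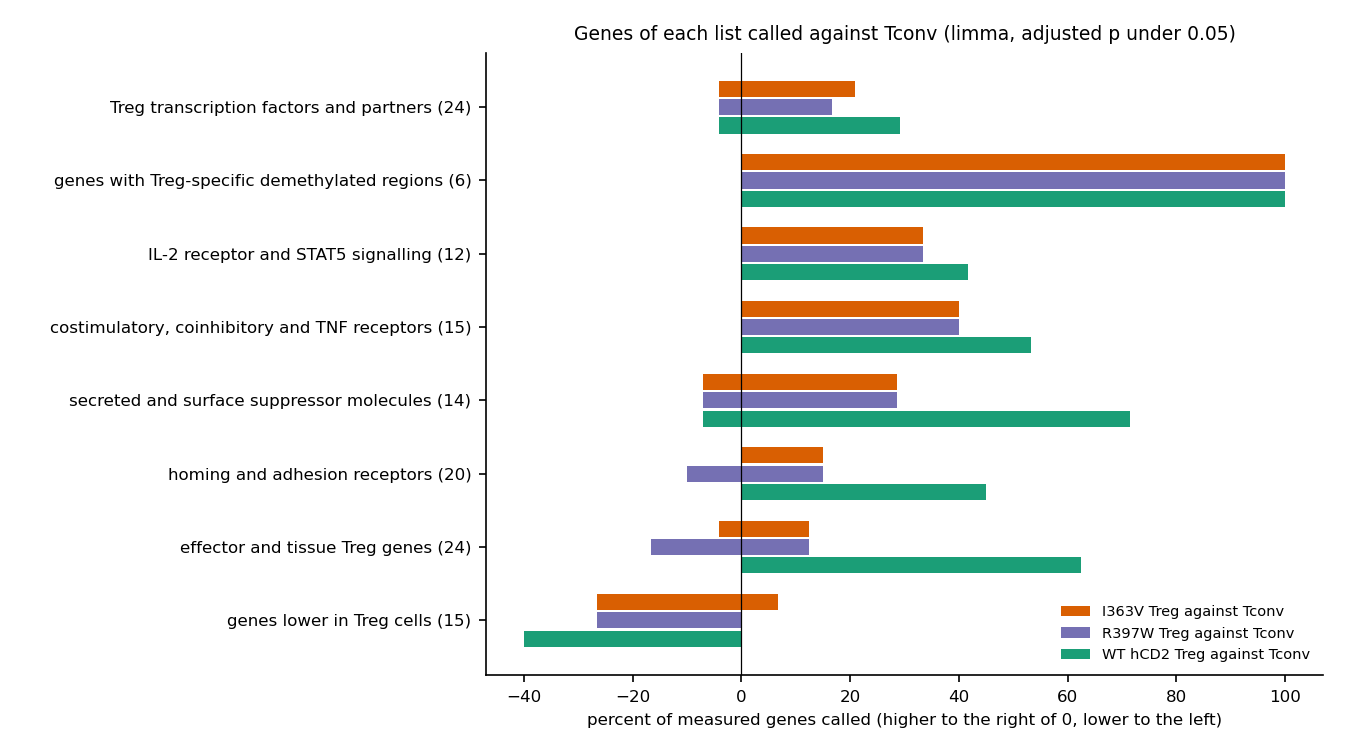
Percent of the measured genes of each list that limma called against Tconv (horizontal axis; higher to the right of 0, lower to the left), for I363V, R397W and WT hCD2 Treg cells, with the number of measured genes in brackets. All 6 genes with demethylated regions are called in each group, Foxp3 among them by the sort. The effector and tissue list has 3 of 24 higher in each mutant against 15 of 24 in WT hCD2 cells. Over all genes 1.48% were higher in I363V cells, 1.06% in R397W cells and 2.7% in WT hCD2 cells.

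Genes normally lower in Treg cells were repressed in part. Of 15 such genes 4 fell against Tconv (1.28% of all genes), namely Dapl1, Il7r, Pde3b and Tgfbr3, and 0 rose (1 at an unadjusted p under 0.05), while limma called 5 higher than in WT hCD2 cells (0.467% of all genes): Pde3b, Tgfbr3, Dapl1, Themis and Il2. Tgfbr3, a TGF-beta co-receptor, had log2 values of -1.44, -1.46 and -1.43 in I363V cells and -0.49, -1.0 and -1.16 in R397W cells, against -2.35 and -2.44 in WT hCD2 cells and 0.05 and -0.05 in Tconv cells. It lay between the references on every mutant array (1.23 ± 0.14 above WT hCD2, limma adjusted p = 0.000245). Il2, the growth factor that Treg cells do not make, was 0.52 ± 0.09 above WT hCD2 (limma adjusted p = 0.00826; lost without WT hCD2 array 3), and not called against Tconv (-0.27 ± 0.09, adjusted p = 0.203). Of 12 T helper cytokine genes 0 were called against Tconv by limma (1 higher and 4 lower at an unadjusted p under 0.05). Il21 was higher than in WT hCD2 cells by 1.47 ± 0.23 (limma adjusted p = 0.00346; lost without WT hCD2 array 4).

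Some genes lay beyond both references. The 2 references came from the same wild-type mice, and Tconv 1 and WT hCD2 array 3 deviated together (0.72), so they are not independent. The mutant cells came from other animals. For genes above or below both references, the mutation and a difference between the animals or their arrays cannot be told apart. Above both Tconv and WT hCD2, limma called 7 genes with an assigned symbol other than that of a predicted gene: Dsp, Gucy1b1, Myo6, Ncoa7, Ccl20, Lgals4 and Osgin2. Dsp had log2 values of 3.19, 4.25 and 3.40 in I363V cells and 3.19, 3.85 and 2.63 in R397W cells, against 1.55 and 0.92 in WT hCD2 cells and 0.03 and -0.03 in Tconv cells. Ncoa7, a nuclear receptor coactivator, had 2.10, 1.88 and 2.0 in I363V cells and 2.49, 2.30 and 2.35 in R397W cells, against 1.29 and 1.25 in WT hCD2 cells and 0.02 and -0.02 in Tconv cells. Neither gene had a mutant array within the range of the other groups, and the differences from WT hCD2 were 2.19 ± 0.29 for Dsp and 0.92 ± 0.10 for Ncoa7 (limma adjusted p = 0.000977 and 0.000157). Gucy1b1, a subunit of the guanylate cyclase that senses nitric oxide, was 1.74 ± 0.32 above WT hCD2, the unconventional myosin Myo6 1.14 ± 0.23, and the chemokine Ccl20, the ligand of CCR6, 0.74 ± 0.17. Ncoa7 alone of the 7 kept this call with any one array left out. The other Ncoa7 probe set was only 0.44 above Tconv and 0.15 above WT hCD2, and that of Gucy1b1 0.63 and 0.35.

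Among the genes called below both references by the mean of both mutants, the 8 furthest below WT hCD2 were S100a4, Myo1f, Lyz1, Ccl5, Cxcr3, Chdh, Anxa1 and Tbx21. They are not the full set. Lyz1 was below both references in R397W cells, while in I363V cells it was not called against Tconv (0.09, limma adjusted p = 0.963). In I363V cells alone S100a4, Myo1f, Cxcr3 and Anxa1 were not called against Tconv either (limma adjusted p = 0.129, 0.0925, 0.0605 and 0.0783). Anxa1 and Tbx21 were not called there against WT hCD2 (limma adjusted p = 0.19 and 0.11). Ccl5 and Chdh were called against both references in I363V cells. Tbx21, which encodes the Th1 factor T-bet, had log2 values of -1.28, -0.68 and -1.89 in I363V cells and -2.02, -2.08 and -1.93 in R397W cells, against -0.11 and -0.41 in WT hCD2 cells and -0.30 and 0.30 in Tconv cells. Cxcr3, a chemokine receptor under T-bet control, had -1.17, -1.01 and -1.36 in I363V cells and -1.05, -1.81 and -1.96 in R397W cells, against 0.35 and 1.08 in WT hCD2 cells and -0.34 and 0.34 in Tconv cells. For both genes every mutant array was under all Tconv and WT hCD2 arrays, and the differences from Tconv were -1.65 ± 0.24 and -1.39 ± 0.27 (limma adjusted p = 0.000833 and 0.00952; that of Cxcr3 lost without Tconv 2). Ccl5, a chemokine of cytotoxic and memory T cells, stood at -2.34, -1.50 and -2.23 in I363V cells and at -2.55, -2.53 and -2.92 in R397W cells, against -0.31 and 0.06 in WT hCD2 cells and -0.62 and 0.62 in Tconv cells. S100a4, a calcium-binding protein of memory and effector T cells, lay between -1.64 and -1.06 on the mutant arrays, against 1.5 and 2.25 in WT hCD2 cells and -0.60 and 0.60 in Tconv cells. Thus S100a4 was 9.21-fold below WT hCD2 (-3.20 ± 0.31, limma adjusted p = 7.19e-05) and 2.51-fold below Tconv (-1.33 ± 0.31, adjusted p = 0.0314), the second call being lost without Tconv 2 and in 3 other fits with one array left out. Chdh, a choline dehydrogenase, was -1.98 ± 0.29 against Tconv and -2.06 ± 0.29 against WT hCD2, and the unconventional myosin Myo1f -1.47 ± 0.32 (lost without either Tconv array) and -2.61 ± 0.32. Anxa1, which encodes annexin A1, was -1.48 ± 0.29 and -1.39 ± 0.29. The calls of Tbx21 and Anxa1 against WT hCD2 were lost without either WT hCD2 array, and those of Ccl5 and Chdh without array 4.

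Markers of other cell types moved beside these falls. Of 14 myeloid markers 3 were lower than in Tconv (Lyz1, Adgre1 and Fcgr3; 1.28% of all genes) and 0 higher, with 0 lower in I363V cells alone. The calls of Adgre1 and Fcgr3 held in 3 and 4 of 8 fits with one array left out. The list median was -0.08, 0.08 and -0.31 for I363V cells and -1.12, -0.79 and -1.17 for R397W cells, against 0.29 and 0.21 for WT hCD2 cells and 0.04 and -0.04 for Tconv cells. Of 9 dendritic cell markers 3 were lower (Itgax, Flt3 and H2-Eb1; 1.28% of all genes), with medians of -0.45 to -0.62 in I363V cells, -0.51 to -0.62 in R397W cells and -0.34 to -0.55 in WT hCD2 cells. Of 11 CD8 T and NK cell markers 4 were lower (Klrd1, Prf1, Eomes and Klrk1; 1.28% of all genes), while Cd8a was at 0.10 to 0.29 on the mutant arrays. Of 9 B cell markers Cd79b was higher (1.55 ± 0.24) and Cd22 lower (-0.81 ± 0.20), against 1.55% and 1.28% of all genes. No erythroid or stromal marker of 6 and 10 was called by limma, with 1 and 0 lower at an unadjusted p under 0.05. The part of such cells in the results was not tested.

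The mutants were also set against each other. limma called 15 genes different between R397W and I363V cells (0.0824%), 11 higher (0.0605%) and 4 lower (0.022%) in R397W cells. Lyz1, a lysozyme of myeloid cells, had log2 values of -3.88, -3.09 and -3.84 in R397W cells and -0.08, 0.32 and 0.04 in I363V cells (-3.70 ± 0.34, limma adjusted p = 0.000539). The related Lyz2 had -1.83, -2.06 and -1.53 in R397W cells and 0.57, 0.62 and 0.48 in I363V cells (-2.36 ± 0.31, limma adjusted p = 0.012). R397W arrays were low for both genes while I363V arrays were near the Tconv level, beside the shift of the whole myeloid list given above. Thus the fall of Lyz1 against Tconv was that of R397W cells. Mettl23, a methyltransferase-like protein, had -0.12, 0.39 and -0.16 in R397W cells and 1.69, 2.18 and 1.97 in I363V cells (-1.91 ± 0.26). Madd, a regulator of Rab GTPases (1.35 ± 0.20), Dido1 (1.27 ± 0.19), Marveld1 (1.24 ± 0.21), the GTPase Gimap7 (0.96 ± 0.14), the orphan nuclear receptor Nr2c1 (0.84 ± 0.13) and the kinase Srpk3 (0.80 ± 0.11) were higher in R397W cells, and Fam91a1 lower (-1.14 ± 0.19). The count was 1 without R397W array 1 and 57 without R397W array 2, so it rests on single arrays.

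No gene of the Treg lists was called by limma between R397W and I363V cells. Counts higher than Tconv were 6 of the 15 costimulatory and TNF receptors, 4 of the 14 suppressor molecules and 3 of the 20 homing receptors in each mutant. Over all genes 1.06% were higher in R397W cells and 1.48% in I363V cells, and 0.967% and 1.02% were lower. Other counts differed: 2 homing receptors were lower in R397W cells and 0 in I363V cells, 4 and 1 effector and tissue genes were lower, and 4 and 5 transcription factors were higher. Against WT hCD2, R397W cells had 17 of the 24 effector and tissue genes lower (1.55% of all genes) and I363V cells 11 (0.682%), a difference in counts that does not show a difference between the mutants.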

How the data were processed

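RNA of sorted mouse CD4 T cells was labelled in a two-step protocol and hybridised to Affymetrix GeneChip arrays, per the labels' protocols. The deposited values are log2 signals that the authors made with RMA (no version given), per the submitters' processing notes. The log base is that of RMA by convention and was not stated. The values had been shifted per probe set so that the Tconv arrays average 0, as the deposited table itself shows. Of the probe sets, 34945 were assigned to 1 gene, 932 to several and 9160 to none in the platform annotation. Of each gene's probe sets the most variable over all 18 arrays was used, which gave 18193 genes, 9010 of them with several probe sets. The choice of the most variable probe set favours large differences. Probe sets that disagree with the one used are given for some genes only.

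Group means of all 18 arrays were fitted with limma 3.58.1 in R 4.3.3 (11 residual and 3.3 prior degrees of freedom), with Benjamini-Hochberg adjustment over all genes and calls at an adjusted p under 0.05. Main contrasts were the mean of I363V and R397W minus Tconv and minus WT hCD2. Tables and plots were made with Python 3.11.15, pandas 2.3.3 and matplotlib 3.10.9. On simulated data with 200 changed genes (both mutants against Tconv, 18193 genes, 5 draws), the fit recovered 31.2%, 78%, 98% and 99.2% of changes of 0.5, 1, 2 and 3 log2 units, with 3.77% false calls. The simulated arrays were independent, while some real arrays deviated together (0.72 for Tconv 1 and WT hCD2 array 3). These rates may therefore not hold for the real data. The number of arrays limits the precision, and arrays give no read depth.

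Named genes were the 12 largest rises and falls called in both mutants together and in each alone with no overlap with Tconv, the 8 largest in each direction beyond both Tconv and WT hCD2, the 6 largest in each direction between the mutants, the programme genes with the smallest and largest differences from WT hCD2 (8 each, among the 100 largest), and the largest changes of each list; predicted genes were passed over. The lists were Treg transcription factors, demethylated-region genes, IL-2 and STAT5 signalling, costimulatory and TNF receptors, suppressor molecules, homing receptors, effector and tissue Treg genes, genes lower in Treg cells, T helper cytokines, naive, Th1, Th2, Th17, Tfh, TCR early response, cell cycle and interferon genes, and markers of T, B, myeloid, dendritic, CD8 T and NK, erythroid and stromal cells. The members and lists were chosen with earlier results of these data known. Alternatives were leaving out each array, fitting only the groups compared, the replicate number as a block, array weights, centring arrays, the mean of probe sets, leaving out the 25% least variable genes, and a minimum log2 difference of 1. Promoter sequences are those of RefSeq on GRCm38.p6.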

Additional observations from a re-analysis of the deposited data

Results flagged for a closer look

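limma called 15 genes different between R397W and I363V Treg cells, a direct test of the difference between the mutants. Lower in R397W cells were the lysozyme genes Lyz1 (-3.70 on the log2 scale) and Lyz2 (-2.36), Mettl23 (-1.91) and Fam91a1 (-1.14). Higher in R397W cells were Madd (1.35), Dido1 (1.27), Marveld1 (1.24), Gimap7 (0.96), Nr2c1 (0.84), Srpk3 (0.80), Mllt11 (0.76) and Tmem219 (0.76), and the genes 5830408C22Rik (1.04), 4930431P19Rik (0.90) and 1700012D14Rik (0.89). The myeloid marker list, which holds Lyz1 and Lyz2, had medians of -1.17 to -0.79 on the R397W arrays and of -0.31 to 0.08 on the I363V arrays, and its part in these differences was not tested. S100a8, a neutrophil and monocyte gene, had log2 values of -1.72, -1.68 and -1.54 in R397W cells and 0.12, 0.17 and -0.41 in I363V cells.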

How the results depend on the processing

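No direction was reversed under any alternative. Of the values of single genes under the alternatives, 1865 kept their side of the threshold and 342 lost the call. Leaving out 1 array at a time gave 226 to 722 called genes for both mutants against Tconv (514 with all), with 134 to 421 higher and 92 to 301 lower, the lowest without Tconv 2 and the highest without R397W array 2. It gave 208 to 436 for I363V and 193 to 657 for R397W against Tconv, 428 to 554 for WT hCD2 against Tconv, 84 to 381 for both mutants against WT hCD2 (167 and 84 without WT hCD2 array 3 and 4), 1 to 57 for R397W against I363V, and 55 to 167 programme genes lower than in WT hCD2. With only the groups compared in the fit, the counts were 225 for both mutants (140 higher, 85 lower), 146 for I363V, 63 for R397W and 212 for WT hCD2 against Tconv, 127 for both mutants against WT hCD2, 3 for R397W against I363V and 74 programme genes. This fit has fewer arrays. A minimum log2 difference of 1 gave 265 (158 higher, 107 lower), 266, 226 and 479 against Tconv in the same order, 179 against WT hCD2 and 8 between the mutants, and the mean of probe sets gave 3 between the mutants. With the replicate block, fitted on the groups compared, the counts were 170 for both mutants against Tconv (115 higher, 55 lower), 56 for I363V, 42 for R397W and 1 between the mutants, and 53 of 98 values of single genes were called. Arrays of equal number did not deviate together in every pair (correlations 0.26 and -0.18 between I363V and Tconv arrays, and 0.07 and 0.21 between R397W and Tconv arrays). In other groups they did (0.71 for Tconv 1 and wild-type mouse GFP Treg array 1, 0.69 for A384T Treg 1 and GFP Treg array 1 of A384T mice). Whether arrays of equal number share an animal or a day was not tested. The cause of the shifts in the counts was not tested. The centred values hide which probe sets were near background.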

Other observations

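Of 18 TCR early response genes 1 was called higher than Tconv for both mutants together (Dusp4; 1.55% of all genes), with 6 higher and 0 lower at an unadjusted p under 0.05. R397W cells alone had 1 called higher (1.06% of all genes) and a list median of 0.30. I363V cells alone had 3 (1.48% of all genes) and 0.91, with 11 higher at an unadjusted p under 0.05. No gene of the list was called by limma between R397W and I363V cells, with 8 lower and 0 higher in R397W cells at an unadjusted p under 0.05 (775 lower and 775 higher among all 18193 genes). Jun, a subunit of the AP-1 factor, had log2 values of 1.63, 2.32 and 2.01 in I363V cells and -3.68, 0.89 and -3.22 in R397W cells, against 1.2 and 0.92 in WT hCD2 cells and 0.77 and -0.77 in Tconv cells. The R397W arrays of Jun were far apart. Of 22 cell cycle genes limma called 0, with 3 higher at an unadjusted p under 0.05. Of 15 interferon response genes the antiviral synthetase Oas2 was lower (-0.79 ± 0.18, limma adjusted p = 0.0317), and of 11 naive T cell genes Il7r was. The share called lower over all genes was 1.28%.

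Of 8 Th1 genes Tbx21 and Cxcr3 were lower than in Tconv. Both, with the IL-18 receptor chain Il18rap, were also lower than in WT hCD2 cells. Of 6 Th2 genes limma called 0 against Tconv (1 lower at an unadjusted p under 0.05) and the chemokine receptor Ccr8 lower than in WT hCD2 cells. Of 4 Th17 genes Ccr6 and Ahr were higher than in Tconv. Of 9 Tfh genes Pdcd1 was higher than in Tconv, while Cxcr5, Pdcd1, Icos and Tox2 were lower and Il21 higher than in WT hCD2 cells. For these 4 lists, the shares over all genes were 1.55% higher and 1.28% lower against Tconv. Against WT hCD2 they were 0.467% higher and 1.44% lower.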
